A study of Mus musculus with 6 samples.

Results

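The genes described here belong to the family of facilitative glucose transporters and to the hexokinases, which trap glucose in the cell, with Txnip as a regulator. They are 7 facilitative glucose transporter genes (Slc2a1, Slc2a3, Slc2a4, Slc2a5, Slc2a8, Slc2a10 and Slc2a12), the hexokinase genes Hk1 and Hk2, and Txnip. They were chosen by gene symbol, with earlier results of these data known, as were the related lists below. All 10 genes were found among the 46095 rows of the count table. RNA was sequenced from brown adipocytes that had been grown in culture from C57BL/6 mice aged 5 weeks. The starting cells were the stromal vascular fraction of brown fat, which is the non-adipocyte cells of the tissue including its preadipocytes. There were 3 libraries of the genotype U-IRX3ov, whose name gives IRX3 overexpression, and 3 control libraries. Both groups were differentiated for 8 days. Insulin at 5 µg/mL, rosiglitazone at 1 µM and T3 at 1 µM were present throughout, while dexamethasone at 1 µM and IBMX at 0.5 mM were present in the first 2 days and absent in the other 6. Both groups were therefore kept in insulin, the hormone that regulates several of these genes and proteins. The labels name neither the promoter that drives the overexpressed IRX3 nor the mice or cultures behind each library. The p-values thus measure only the spread between these libraries, which may be technical.

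Facilitative transporters (GLUT proteins) let glucose pass down its gradient across a membrane. GLUT1, encoded by Slc2a1, sits in the plasma membrane of most cells, whereas GLUT4, encoded by Slc2a4, waits in vesicles of fat and muscle cells until insulin sends it to the surface. Hexokinases then phosphorylate glucose to glucose 6-phosphate, which cannot leave through the transporters. TXNIP, an alpha-arrestin, draws GLUT1 and GLUT4 back into the cell, and its gene is switched on by the sugar-sensing factors MondoA and ChREBP (genes Mlxip and Mlxipl) when hexose phosphates build up. Brown fat takes up much glucose when it makes heat.

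The promoters of 4 of these genes are printed because their RNA changed most clearly, 3 upward and 1 downward. Each window runs from 250 bases before to 50 after the annotated start, from RefSeq on build GRCm38.p6, in the direction of transcription, and 8 of the 10 genes had a window. Capitals mark 4 searched motifs on either strand. They are a paired E-box of MondoA and ChREBP, the ACGTG core of hypoxia-response elements, CCAAT, and the TATA-box letters TATAAA. The paired E-box was searched only as CACGNG followed, 5 bases on, by a second CACGNG, and other forms were not searched.
Slc2a1 (chr4:119108495-119108794, plus strand): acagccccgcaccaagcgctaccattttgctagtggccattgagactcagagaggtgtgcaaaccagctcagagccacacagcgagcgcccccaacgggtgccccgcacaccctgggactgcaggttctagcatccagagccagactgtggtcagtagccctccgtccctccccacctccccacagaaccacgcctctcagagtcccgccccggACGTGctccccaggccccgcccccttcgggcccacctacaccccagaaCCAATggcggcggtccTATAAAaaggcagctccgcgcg
Hk2 (chr6:82774405-82774704, minus strand): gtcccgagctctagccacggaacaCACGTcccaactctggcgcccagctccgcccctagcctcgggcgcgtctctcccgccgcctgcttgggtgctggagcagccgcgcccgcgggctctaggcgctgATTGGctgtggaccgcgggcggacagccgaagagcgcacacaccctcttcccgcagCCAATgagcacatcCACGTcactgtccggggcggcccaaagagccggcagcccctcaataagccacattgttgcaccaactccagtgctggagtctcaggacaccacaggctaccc
Txnip (chr3:96557707-96558006, plus strand): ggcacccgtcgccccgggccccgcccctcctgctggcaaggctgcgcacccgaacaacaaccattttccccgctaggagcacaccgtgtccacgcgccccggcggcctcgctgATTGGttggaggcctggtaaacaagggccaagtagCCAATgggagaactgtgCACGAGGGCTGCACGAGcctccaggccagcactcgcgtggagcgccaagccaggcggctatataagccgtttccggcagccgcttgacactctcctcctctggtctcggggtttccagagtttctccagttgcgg
Slc2a10 (chr2:165503647-165503946, plus strand): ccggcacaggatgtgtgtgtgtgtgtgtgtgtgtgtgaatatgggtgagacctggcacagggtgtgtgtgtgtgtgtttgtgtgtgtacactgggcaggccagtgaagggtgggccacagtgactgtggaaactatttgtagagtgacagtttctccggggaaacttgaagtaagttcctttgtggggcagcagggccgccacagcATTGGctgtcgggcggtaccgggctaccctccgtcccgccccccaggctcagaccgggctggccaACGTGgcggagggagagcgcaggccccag
The Txnip window held the paired E-box as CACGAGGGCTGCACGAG, first base at -85 counted from the start. That form of the pair was found in 16 of 32851 promoter windows of all genes (0.0487%) and in no other window of the 10 genes. The Slc2a1 window had an ACGTG at -36, and the Hk2 window had its reverse complement CACGT at -226 and at -52. ACGTG was also in the window of Slc2a10, which fell, at +22, and in 1 of the 2 windows of Hk1. ACGTG occurred in 19.6% of all windows, CCAAT in 37.4% and TATAAA in 13.6%, so these shorter matches are common. The full E-box CACGTG, which contains ACGTG, was in 7.15% of all windows and in none of those of the 10 genes. CCAAT, on either strand, was in the windows of Slc2a1, Slc2a8, Slc2a10, Hk2 and Txnip, and TATAAA was in that of Slc2a1. In the Slc2a1 window CCAAT lay at +13 and TATAAA at +29, both after the annotated start. A match is a run of letters and does not show that a factor binds there.

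Of the 10 genes, 9 had enough counts to be tested. In U-IRX3ov cells 7 of them rose, 1 fell and 1 did not pass the test (edgeR, adjusted p under 0.05 over all genes). Of all 14757 genes tested, 20.2% rose and 21.1% fell, so a change was common in these cells and 41.3% of all genes were called. In 8 of the 9 genes the 3 U-IRX3ov libraries lay entirely on 1 side of the 3 control libraries (7 above and 1 below), as in 24.9% (above) and 25.9% (below) of all genes. The median log2 fold change of the 9 genes was 0.52, beside -0.0047 for all genes tested. Levels are given as CPM (counts relative to library size, scaled by TMM) or as CPM per kilobase of annotated exons where genes are compared with each other.

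The libraries held 20094799 to 26755870 counts, with those of U-IRX3ov 2 and 3 smaller than the other 4. Irx3, the gene named by the genotype, had 163, 123 and 114 counts in U-IRX3ov libraries and 131, 142 and 138 in control libraries. It averaged 6.16 ± 0.23 CPM in U-IRX3ov and 5.11 ± 0.32 CPM in control cells, and did not pass the test (log2 0.27 ± 0.13, edgeR adjusted p = 0.112). Whether RNA of the construct is counted under that symbol is not known, so this does not check the genotype. The summed level of 8 adipocyte markers was 35512 to 36975 CPM in U-IRX3ov libraries and 28053 to 28914 CPM in control libraries, and 7 of the 8 rose with a median log2 fold change of 0.32. The 8 brown adipocyte markers all rose, with a median of 1.61, among them the uncoupling protein gene Ucp1 (log2 fold change 3.60 ± 0.08). Of 8 tested pericyte and smooth muscle markers 5 fell and 2 rose, and of 8 tested endothelial markers 4 rose. Among 10 skeletal muscle markers, relevant because muscle uses Slc2a4 and Hk2, 4 of 6 tested rose and 1 fell. The median log2 fold change of those tested was 1.21. The summed level of the 10 markers was 23.2 to 32.0 CPM in U-IRX3ov and 23.7 to 28.6 CPM in control libraries. Most of that sum was Acta1, the marker that fell, with means of 14.7 CPM in U-IRX3ov and 20.1 CPM in control cells. The sum therefore says little about the markers that rose, such as Myh1 (means of 3.94 and 1.31 CPM in the same order). Ckm, Myh4, Myog and Myod1 were under 1 CPM in every library. Of 7 neuron and Schwann cell markers, 2 of 4 tested rose and 1 fell, and 5 of 6 erythroid markers were at 0 in every library. These numbers of markers stand beside 20.2% of all tested genes that rose and 21.1% that fell. In cultures sequenced as a whole, more cells of a type and more RNA per cell cannot be told apart. The part of these cell types in the changes of the transporters, hexokinases and Txnip was not tested.

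**Figure D1:**
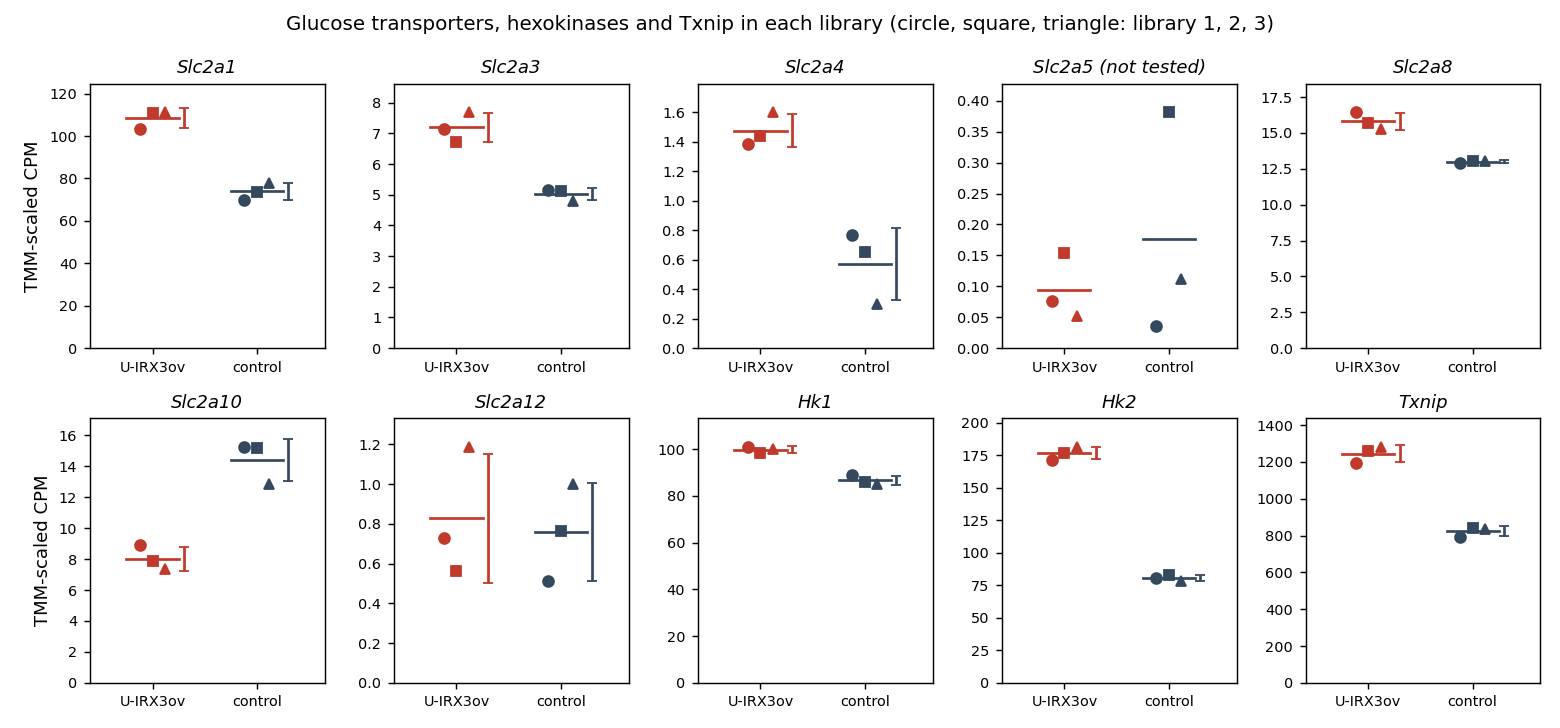
TMM-scaled CPM of each of the 10 genes in the U-IRX3ov libraries (red) and control libraries (dark blue), with the scale of each panel starting at 0. Symbols are libraries, horizontal lines are means and vertical bars are SD over 3 libraries, left out for Slc2a5. The groups are apart in 8 panels, and Slc2a5 and Slc2a12 overlap.

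Hk2 showed the smallest p of the 10 genes. It encodes the hexokinase typical of insulin-sensitive tissues such as muscle and fat, which docks on mitochondria. Hk2 had 172, 177 and 182 CPM in the 3 U-IRX3ov libraries, against 80.9, 83.1 and 77.9 CPM in the 3 control libraries. The U-IRX3ov libraries all lay well above every control library. Hk2 thus rose 2.19-fold (edgeR log2 fold change 1.13 with an SE of 0.04, adjusted p = 5.99e-18), and 1.49% of all tested genes had a higher log2 fold change. Its gene spans bases 82725025 to 82774454 of chromosome 6 (mm10, minus strand).

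Hk1, the hexokinase present in most tissues (chromosome 10, bases 62268855 to 62379908, minus strand), changed far less. It had 101, 98.4 and 100.2 CPM in U-IRX3ov libraries and 88.9, 86.1 and 85.0 CPM in control libraries. The groups did not overlap, and the rise was 1.15-fold (log2 0.21 ± 0.04, edgeR adjusted p = 1.88e-04). In the ratio of Hk2 to Hk1 inside each library, scaling between libraries cancels out. Per kilobase of all annotated exons the Hk2 level was 2.43, 2.57 and 2.59 times the Hk1 level in U-IRX3ov libraries, against 1.30, 1.38 and 1.31 times in control libraries. The log2 ratio was higher by 0.93 in U-IRX3ov cells (exact permutation test over libraries, two-sided, p = 0.1, the smallest that 3 against 3 libraries allow). Which enzyme was the more abundant in control cells depends on the length assumed for Hk1, whose exons span 8.53 kilobases in all but 4.28 kilobases in the longest transcript. With the longest transcripts the ratio of Hk2 to Hk1 was 1.32 to 1.41 in U-IRX3ov libraries and 0.706 to 0.749 in control libraries. The difference between the groups is the same with either length. The summed level of both hexokinases ran from 40.6 to 42.2 CPM per kilobase in U-IRX3ov libraries and from 23.0 to 24.0 in control libraries (all annotated exons).

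Slc2a1 was the most abundant of the transporters in every library. It had 103, 111 and 111 CPM in U-IRX3ov libraries and 70.0, 73.8 and 77.9 CPM in control libraries. The groups were apart, and Slc2a1 rose 1.47-fold (log2 0.55 ± 0.05, edgeR adjusted p = 1.32e-10). Its gene spans bases 119108711 to 119137983 of chromosome 4 (mm10, plus strand).

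Slc2a4 had low counts in both groups, although these were adipocytes by their markers. How reads were assigned to genes is not given, so whether its low level, its rank and its ratio to Slc2a1 come from the counting was not tested. It had 36, 28 and 31 raw counts in the U-IRX3ov libraries and 21, 17 and 8 in the control libraries. In CPM this was 1.38, 1.44 and 1.60 in U-IRX3ov libraries and 0.767, 0.649 and 0.297 in control libraries, so every U-IRX3ov library was above every control library, and control library 3 was the lowest. Slc2a4 rose 2.56-fold (log2 1.36 ± 0.35, edgeR adjusted p = 0.00256), with a wide 95% interval of 1.55 to 4.22 for the fold. Without control library 3 the log2 fold change was 1.05 (adjusted p = 0.0226). All 3 U-IRX3ov libraries and 2 of the 3 control libraries had at least 10 counts, so the gene passed the filter on low counts mainly through the U-IRX3ov libraries. Without any filter its adjusted p was 0.00110.

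Set per kilobase, the Slc2a1 level was 69.0 to 76.6 times that of Slc2a4 in U-IRX3ov libraries and 90.5 to 260 times in control libraries. The log2 ratio of Slc2a4 to Slc2a1, with 1 count added to each, was on average higher by 0.86 in U-IRX3ov cells (exact permutation p = 0.1, two-sided). Without control library 3 that difference was 0.44. Ranked per kilobase among the 13881 tested genes with an annotated length, Slc2a4 stood at percentile 12.8 in U-IRX3ov and 4.36 in control cells, and Slc2a1 at 89.0 and 84.0 in the same order. The Slc2a4 gene spans bases 69942539 to 69948188 of chromosome 11 (mm10, minus strand), and no other annotated gene overlaps it. In the same libraries the adipocyte marker Fabp4, a fatty acid carrier, averaged 18682 ± 540 CPM in U-IRX3ov cells and 12693 ± 604 CPM in control cells (SD, n = 3 each).

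Slc2a10 was the only 1 of the 9 tested genes to fall. It encodes GLUT10, an intracellular transporter whose loss in humans causes arterial tortuosity syndrome, a disorder of connective tissue. The gene spans bases 165503787 to 165519917 of chromosome 2 (mm10, plus strand). It had 8.88, 7.85 and 7.33 CPM in U-IRX3ov libraries and 15.3, 15.2 and 12.8 CPM in control libraries. Every U-IRX3ov library was below every control library, with a fold of 0.559 (log2 -0.84 ± 0.11, edgeR adjusted p = 3.24e-07). Only 4.95% of all tested genes had a lower log2 fold change. Markers of preadipocytes and fibroblasts were lower in the same libraries (10 of 11 tested members fell, beside 21.1% of all genes). The summed level of these markers was 3978 to 4303 CPM in U-IRX3ov and 6634 to 6790 CPM in control libraries. Their part in the fall of Slc2a10 was not tested.

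Slc2a3 and Slc2a8 rose as well. Slc2a3, which encodes the high-affinity GLUT3 of neurons and leukocytes, had 7.15, 6.72 and 7.70 CPM in U-IRX3ov libraries and 5.15, 5.12 and 4.79 CPM in control libraries. The groups were apart, with a 1.43-fold rise (log2 0.52 ± 0.13, edgeR adjusted p = 0.00205). Leukocyte markers fell in 11 of 11 tested members in the same libraries, beside 21.1% of all genes. The part of leukocytes in the value of Slc2a3 was not tested. The gene (chromosome 6, bases 122727809 to 122801640, minus strand) encloses the pseudogene Gm4482, which had 112 to 170 counts in U-IRX3ov libraries and 84 to 135 in control libraries. These are raw counts, not scaled for the smaller U-IRX3ov libraries, beside 131 to 186 and 129 to 141 for Slc2a3 in the same order. Slc2a8, which encodes the intracellular GLUT8 (chromosome 2, bases 32972990 to 32982083, minus strand), had 16.5, 15.7 and 15.2 CPM in U-IRX3ov libraries and 12.9, 13.0 and 13.1 CPM in control libraries. Its rise was 1.22-fold (log2 0.28 ± 0.09, edgeR adjusted p = 0.00946). That call was lost without U-IRX3ov library 1, where the adjusted p was 0.0510.

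The remaining transporters were near the lower limit of detection. Slc2a12, the gene of the insulin-responsive GLUT12 (chromosome 10, bases 22645011 to 22704285, plus strand), had 19, 11 and 23 raw counts in U-IRX3ov libraries and 14, 20 and 27 in control libraries. Its groups overlapped and it did not pass the test (log2 0.12 ± 0.38, edgeR adjusted p = 0.835, 95% interval of the fold 0.628 to 1.87). The 3′ end of Slc2a12 shares 407 exon bases with Tbpl1, a gene on the other strand with 707 to 1019 counts per library, so its counts are uncertain. Slc2a5, the gene of the fructose transporter GLUT5 (chromosome 4, bases 150119283 to 150144169, plus strand), had 2, 3 and 1 raw counts in U-IRX3ov libraries and 1, 10 and 3 in control libraries and was not tested. A difference in Slc2a5 or a modest one in Slc2a12 could not be detected at this depth.

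Slc2a1 took a larger share of the transporter RNA in U-IRX3ov cells. Of the summed CPM per kilobase of the 7 transporters, Slc2a1 made up 76.2%, 78.6% and 78.7% in U-IRX3ov libraries and 68.1%, 68.9% and 71.9% in control libraries. The groups did not overlap, with means 8.18 percentage points apart (exact permutation p = 0.1, two-sided, the smallest possible). Slc2a10 made up 5.09% to 6.44% in U-IRX3ov libraries and 11.6% to 14.6% in control libraries. Slc2a8 held 11.8% to 13.3% in U-IRX3ov libraries and 13.2% to 13.7% in control libraries, ranges that overlap. Slc2a4 held 1.03% to 1.14% in U-IRX3ov libraries and 0.276% to 0.752% in control libraries. The summed level was 38.6 to 40.4 CPM per kilobase in U-IRX3ov libraries and 29.3 to 30.9 in control libraries.

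**Figure D2:**
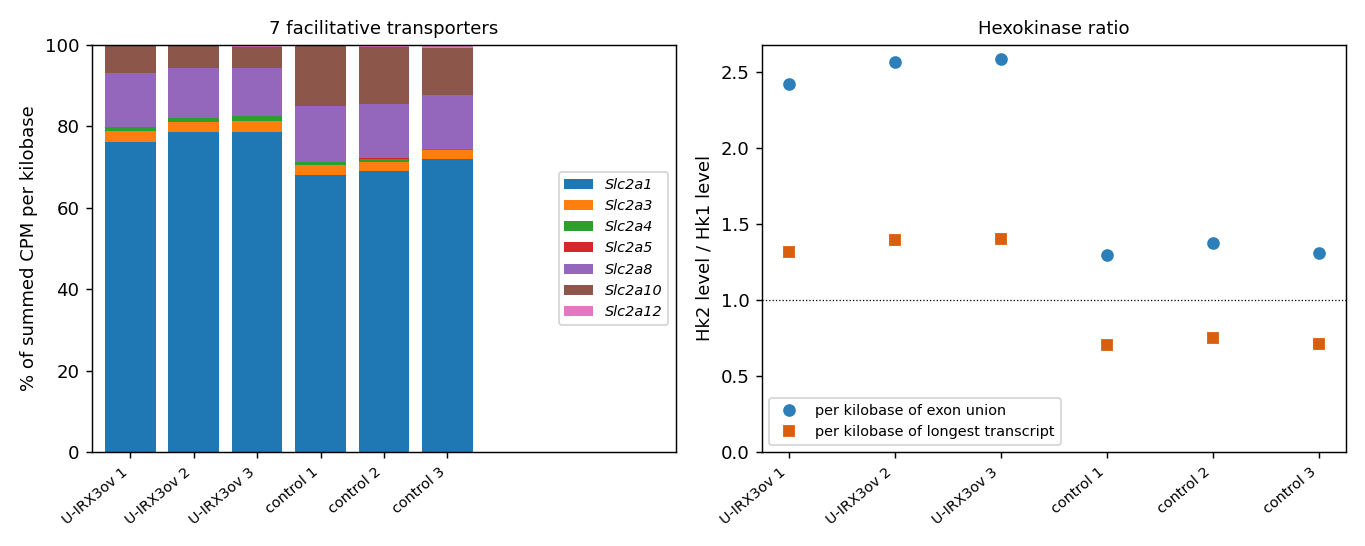
Left, the percentage of the summed CPM per kilobase of the 7 transporters held by each gene in each library. Right, the Hk2 level divided by the Hk1 level in each library, per kilobase of all annotated exons (circles) or of the longest transcript (squares), with a dotted line at a ratio of 1. Slc2a1 holds 76.2% to 78.7% in U-IRX3ov libraries and 68.1% to 71.9% in control libraries, and both forms of the ratio are higher in every U-IRX3ov library.

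Txnip was by far the most abundant of the 10 genes. It had 1193, 1261 and 1282 CPM in U-IRX3ov libraries and 793.5, 844 and 833 CPM in control libraries. The groups were apart and Txnip rose 1.51-fold (log2 0.60 ± 0.04, edgeR adjusted p = 1.79e-13). At 399 CPM per kilobase in U-IRX3ov and 264 in control cells, Txnip stood at percentile 99.6 and 99.4 of the 13881 tested genes with an annotated length, in the same order. The Txnip gene spans bases 96557957 to 96561883 of chromosome 3 (mm10, plus strand), inside the span of the antisense gene Gm15441. That gene had 10 to 16 counts in U-IRX3ov libraries and 16 to 28 in control libraries, beside at least 21731 for Txnip. In level per kilobase of all annotated exons, Txnip was followed in both groups by Slc2a1, Hk2, Hk1, Slc2a8, Slc2a10 and Slc2a3, except that with the longest transcripts Hk1 stood above Hk2 in control cells. Libraries of Slc2a1 and Hk2 overlapped in U-IRX3ov cells, as did those of Slc2a8 and Slc2a10 in control cells. Below them Slc2a4, Slc2a12 and Slc2a5 were apart in U-IRX3ov cells in that order, and in control cells Slc2a12 overlapped Slc2a4 and Slc2a4 overlapped Slc2a5.

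**Figure D3:**
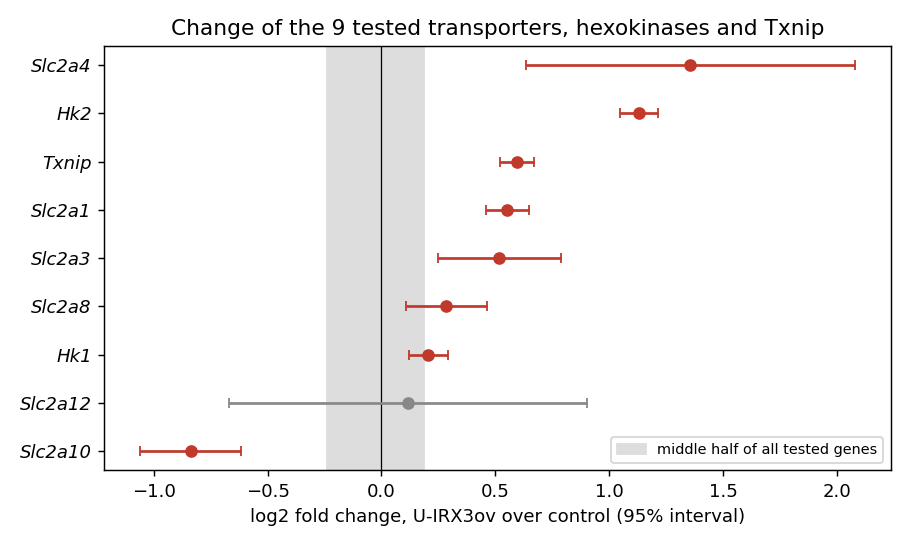
Log2 fold change of the 9 tested genes, U-IRX3ov over control, with 95% intervals from the edgeR fit; red points passed the test and the grey point did not. The grey band spans the interquartile range of all 14757 tested genes. Slc2a4 has the highest value with a wide interval, Hk2 a narrow interval around 1.13, and Slc2a10 alone lies below 0 at -0.84.

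Most enzymes after glucose 6-phosphate rose as well. In the list of later glycolysis and lactate transport 19 of 21 tested genes rose, beside 20.2% of all genes. The list, chosen with earlier results of these data known, had a median log2 fold change of 0.90. Its 4 smallest p-values belonged to Gpi1, which converts glucose 6-phosphate to fructose 6-phosphate (log2 1.06 ± 0.04), the liver-type phosphofructokinase Pfkl (1.06 ± 0.04), Pfkfb3, which makes the activator of phosphofructokinase (1.09 ± 0.04), and lactate dehydrogenase Ldha (0.95 ± 0.04). The 2 genes that did not pass were Pfkfb4 (-0.21 ± 0.09, edgeR adjusted p = 0.0711) and the monocarboxylate transporter Slc16a7 (0.17 ± 0.13, adjusted p = 0.324), named after their values were seen. Gapdh, which has many near-identical pseudogenes, stood at only 100 ± 10.7 CPM in U-IRX3ov cells and 55.5 ± 2.76 CPM in control cells (SD, n = 3 each). How reads shared with such copies were counted is not given, so its values are uncertain.

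Over all genes tested, 20.2% rose and 21.1% fell, which the counts of the next 2 lists stand beside. Of 11 other hexose transporter genes 4 were tested, of which 2 fell and the other 2 did not pass. Those that fell were Slc50a1, a sugar transporter of the SWEET family (log2 -0.41 ± 0.08, edgeR adjusted p = 2.10e-04), and Slc2a6, the gene of GLUT6 (-0.75 ± 0.23, adjusted p = 0.0109). Slc2a2 (GLUT2 of liver and islets) had at most 5 counts in any library, and the sodium-glucose cotransporter genes Slc5a1 and Slc5a2 had at most 2 and 1. Among other hexose kinases and glucose-6-phosphatase genes, 2 of 7 tested rose and 2 fell. The glucose 6-phosphate transporter Slc37a4 (log2 0.75 ± 0.10) and ketohexokinase Khk (0.57 ± 0.15) rose. Hk3, the hexokinase of leukocytes (-0.88 ± 0.15, adjusted p = 1.72e-05), and the ADP-dependent glucokinase Adpgk (-0.23 ± 0.06) fell. The 13 macrophage and leukocyte markers had summed levels of 157 to 233 CPM in U-IRX3ov libraries and 484 to 594 CPM in control libraries. Their part in the values of Hk3 and Slc2a6 was not tested.

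Of 17 tested genes of the proteins that move GLUT4, 5 rose, 2 fell and 10 did not pass, with a median log2 fold change of 0.05. That share of called genes is close to the 41.3% over all genes. The clearest was Tbc1d4 (AS160), the Akt substrate that holds GLUT4 vesicles back until insulin acts, with 111 to 123 CPM in U-IRX3ov libraries and 70.6 to 78.3 CPM in control libraries (log2 0.64 ± 0.05, edgeR adjusted p = 2.08e-11). Its relative Tbc1d1 fell (-0.31 ± 0.06). The small GTPase Rhoq (TC10), of the insulin-to-GLUT4 pathway, rose by 0.24 ± 0.04 on the log2 scale. Sort1 (sortilin) and Lnpep (IRAP), cargo proteins of GLUT4 vesicles named after their values were seen, had log2 fold changes of 0.04 ± 0.04 and 0.05 ± 0.04 and did not pass.

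The list of alpha-arrestins, thioredoxins and MLX-family factors holds relatives and regulators of Txnip, and also Nlrp3, which belongs to none of these families. In it 3 of 12 tested genes rose and 2 fell, with a median of 0.02. This is also close to the 20.2% higher and 21.1% lower over all genes. The 2 that fell were Arrdc4 and Nlrp3, the latter named after its value was seen. Mlxipl (ChREBP) had 146 ± 4.95 CPM in U-IRX3ov cells and 78.8 ± 0.97 CPM in control cells (log2 0.89 ± 0.04, edgeR adjusted p = 5.89e-16). Mlxip (MondoA) rose by 0.27 ± 0.04 and the mitochondrial thioredoxin Txn2 by 0.26 ± 0.04. Arrdc4, the alpha-arrestin that is a known target of the same factors, went the other way from Txnip, with 57.3 ± 1.37 CPM in U-IRX3ov and 72.3 ± 2.87 CPM in control cells (log2 -0.34 ± 0.05, adjusted p = 2.19e-06). Txn1, the thioredoxin that TXNIP binds, was at -0.01 ± 0.05 on the log2 scale (edgeR adjusted p = 0.889; named after its value was seen).

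Among 15 transcription factors and cofactors described at Slc2a1, Slc2a4 or Hk2, 10 rose and 2 fell, beside 20.2% and 21.1% of all genes. The median log2 fold change of these 15 was 0.20. Those with the smallest p were Pparg (0.61 ± 0.04), the adipogenic receptor that rosiglitazone activates, Ppargc1a (1.17 ± 0.08), a coactivator of mitochondrial genes, Esrra (0.44 ± 0.04) and Srebf1 (0.35 ± 0.03). The 2 that fell, named after their values were seen, were Hif1a (-0.34 ± 0.04), the hypoxia factor known to raise Slc2a1, and Mef2c (-0.43 ± 0.11), a member of the family that binds the Slc2a4 promoter. Hif1a shares 330 exon bases with the antisense gene Gm15283, which had 52 to 54 counts in U-IRX3ov libraries and 1 in each control library. Mef2a, the member most often described there, had -0.06 ± 0.05 (edgeR adjusted p = 0.349).

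**Figure D4:**
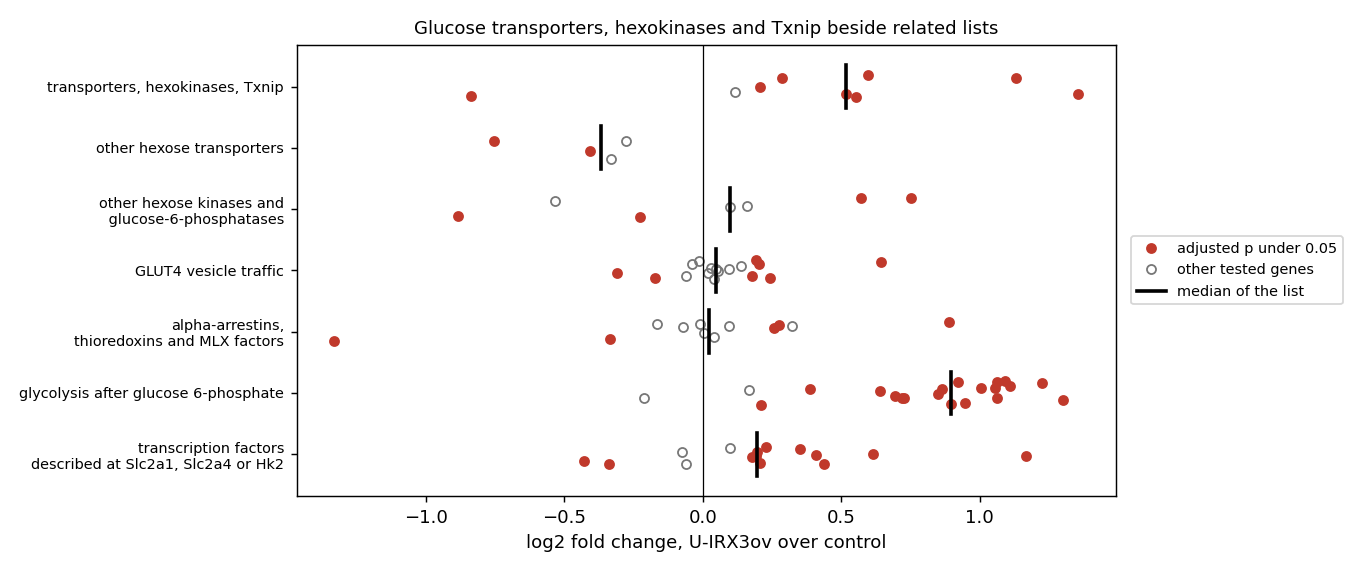
Log2 fold change, U-IRX3ov over control, of every tested gene in the members' list and in 6 related lists. Filled points passed the test, open points did not, and bars are medians. The median of later glycolysis is 0.90, that of the transporters, hexokinases and Txnip 0.52, and those of the traffic and arrestin lists are close to 0.

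The changes most like those of Hk2 and Slc2a10 were found among the 9228 genes whose level reached 10 CPM in either group. Likeness was the root mean square difference of log2 CPM over the 6 libraries, each gene centred on its control mean. Nearest to Hk2 were Elmod2 (0.0155), the lipase-family gene Pnpla3 (0.0216) and the desaturase Scd1 (0.0397). Nearest to Slc2a10 were Susd2 (0.0564), the thromboxane receptor Tbxa2r (0.0566) and the secreted guidance ligand Slit2 (0.0669).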

How the data were processed

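The 6 RNA-seq libraries were grouped by their source label. The authors deposited 1 table of raw counts per gene symbol, not normalized. The submitters' processing notes name HISAT2 2.0.4 and mm10. Neither these nor the labels name a counting program or say whether strand was used, so counts of overlapping genes may be mixed. Library pairs of 1 group had chi-square values of 2.92 to 4.91 over genes, relative to their degrees of freedom, so none was a copy of another.

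Genes were filtered with filterByExpr (minimum count 10), scaled by TMM and tested with edgeR 4.0.16 in R 4.3.3 (robust quasi-likelihood F test, group only, two-sided, Benjamini-Hochberg over 14757 genes, threshold 0.05). Values after ± beside a log2 fold change are standard errors, taken from the fold change and its F statistic, and 95% intervals use the moderated degrees of freedom. The procedure was tested on simulated data in which far fewer genes changed than were called here. That simulation does not test the scaling or the rate of false calls where changes are this common. Lengths and positions came from GENCODE vM21 (GRCm38, the assembly of mm10), matched by symbol. Alternatives used DESeq2 1.42.0, limma 3.58.1 and the settings of the closing section.

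Members and lists were chosen with earlier results of these data known. Named genes were all members, up to 4 called genes of each related list by p, up to 2 markers a list, and the 3 nearest patterns to the largest rise and the largest fall among members with at least 10 CPM. Other list genes given with values, such as Gapdh and Mef2a, lie outside this rule and were named with their values known. Individual values of 2 genes in the related lists are not reported here. A p over libraries is from an exact permutation test (scipy 1.17.1).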

Additional observations from a re-analysis of the deposited data

How the results depend on the processing

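Alternatives were DESeq2 size factors, upper-quartile scaling, no filter on low counts, a filter of at least 1 CPM in 3 libraries, DESeq2, limma-voom, an adjusted p of 0.01, the replicate number as a block, other gene lengths, 0.5 added counts, and leaving out each library. Other lengths apply only to the ratios and the Slc2a1 share, and added counts only to the ratios; all kept their direction. In each of the other alternatives, 7 of the transporters, hexokinases and Txnip rose and 1 fell, except without U-IRX3ov library 1, where Slc2a8 was lost. Without 1 library the log2 fold change of Slc2a4 ran from 1.05 to 1.63, and that of Slc2a12, never called, from -0.21 to 0.37 (-0.10 without control replicate 1). Slc2a12 failed the filter at 1 CPM and has no value there. At an adjusted p of 0.01, 1 of the 4 tested other hexose transporters was called, against 2. The number of all genes called higher ran from 2261 to 3034, and lower from 2412 to 3324. Adding the counts of overlapping genes, an alternative chosen after seeing the data, gave log2 fold changes of 0.62 for Slc2a3 (with the pseudogene Gm4482, which lies inside it) and 0.60 for Txnip. The value for Slc2a3 then comes in large part from Gm4482, whose raw counts were of the same order. With added Tbpl1 the value of Slc2a12 was 0.14, mostly from Tbpl1.

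The numbers 1 to 3 are shared by both groups, with no statement that they mark shared mice or days. Deviations of same-numbered libraries correlated at 0.0222, 0.0745 and 0.0514, so the numbers were not taken to pair the libraries, although each library correlated best with its own number. With the replicate block 3014 genes rose and 3159 fell, among them 7 and 1 of the genes described here, and no call of these genes changed. The ratios keep their values under the block, and its exact test cannot go below p = 0.25. Counts below about 30 per library limit Slc2a4, Slc2a5 and Slc2a12.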
